A study of Mus musculus with 46 samples.

Results

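The oligoadenylate synthetase (OAS) genes Oas1a, Oas1g, Oas2, Oas3, Oasl1 and Oasl2 were followed across every treatment of mouse bone marrow-derived macrophages. The 6 genes were chosen by symbol, and all 6 were found among the 24671 genes of the deposited table. All 6 passed the filter on low counts, which left 13838 genes for testing. The 46 bulk RNA-seq libraries fall into 9 groups, with 6 libraries for Vehicle and 5 for each treatment. All groups are macrophages grown from bone marrow, and the labels used here give no genotype, strain, dose, treatment time or age.

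The single treatments were 27HC (27-hydroxycholesterol, an oxysterol), GW3965 (a synthetic agonist of the liver X receptors, LXR), GSK2033 (a synthetic LXR antagonist), E2 (estradiol) and a compound that the labels call ICI. 27HC was also given together with GSK2033 and together with ICI. In the last group GW3965 was combined with a second compound, which is 27HC in the titles and ICI in the other labels, so it is left unnamed here. The labels do not say that replicates came from separate animals or cultures, so p-values measure the spread between these libraries, which may be technical. The series' design text says that the study set out to examine LXR and estrogen receptor ligands in these cells.

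OAS proteins sense double-stranded RNA, and the catalytically active forms then join ATP into 2-5A, short chains of adenylate with an unusual linkage. 2-5A is a second messenger of the antiviral response and limits viral growth. The genes are classical targets of type I interferon, which acts through its receptor, the kinases JAK1 and TYK2, and a transcription factor complex that holds IRF9 and binds the interferon-stimulated response element (ISRE). LXR are sterol-activated nuclear receptors that turn on cholesterol efflux and lipid genes in macrophages.

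All 6 genes lie on chromosome 5 of GRCm38, in a pair of clusters, and GENCODE M21 lists each as protein-coding. Oasl2 (ENSMUSG00000029561, plus strand, 114896936 to 114912234) and Oasl1 (ENSMUSG00000041827, plus strand, 114923240 to 114937915) are neighbours. The other cluster holds Oas2 (ENSMUSG00000032690, 120730333 to 120749853), Oas3 (ENSMUSG00000032661, 120753098 to 120777661), Oas1g (ENSMUSG00000066861, 120876142 to 120887613) and Oas1a (ENSMUSG00000052776, 120896256 to 120907521), all on the minus strand. The annotation names 12 OAS genes in all, and the other 6 lie in the second cluster.

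The sequence around the start of 5 members is shown because the members moved together across treatments. An exact search found the ISRE core in only some of the 5. Each window runs from 100 bases before the RefSeq start site, counted as position 0, to 49 bases after it, 5′ to 3′ along the gene, on GRCm38.p6. Capitals mark the ISRE core, searched as GAAANNGAAA on both strands.
Oas1a, chr5:120907476-120907625, minus strand: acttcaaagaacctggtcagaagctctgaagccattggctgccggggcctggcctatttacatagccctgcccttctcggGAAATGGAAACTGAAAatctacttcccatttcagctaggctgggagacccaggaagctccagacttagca
Oas1g, chr5:120887564-120887713, minus strand: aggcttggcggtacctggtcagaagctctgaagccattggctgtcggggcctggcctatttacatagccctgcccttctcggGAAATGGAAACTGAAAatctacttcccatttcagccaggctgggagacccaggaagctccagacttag
Oas3, chr5:120777610-120777759, minus strand: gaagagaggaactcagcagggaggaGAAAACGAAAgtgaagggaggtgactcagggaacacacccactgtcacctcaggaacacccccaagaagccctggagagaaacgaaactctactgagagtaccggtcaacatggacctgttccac
Oasl1, chr5:114923140-114923289, plus strand: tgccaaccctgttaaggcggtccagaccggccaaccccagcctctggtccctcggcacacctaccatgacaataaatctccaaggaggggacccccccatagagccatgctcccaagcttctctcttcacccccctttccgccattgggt
Oasl2, chr5:114896834-114896983, plus strand: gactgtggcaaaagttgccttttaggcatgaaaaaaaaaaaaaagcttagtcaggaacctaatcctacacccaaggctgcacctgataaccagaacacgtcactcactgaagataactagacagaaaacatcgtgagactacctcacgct
Oas2 has no entry in the promoter table.

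The ISRE core was found in 3 of the 5 windows. Oas3 holds GAAAACGAAA at -75 to -66. In Oas1a, GAAATGGAAA at -20 to -11 and GAAACTGAAA at -14 to -5 overlap, and the same letters stand at -18 to -9 and -12 to -3 in Oas1g. Oasl1 and Oasl2 hold no match in this window or in the full RefSeq promoter of 300 bases. Of all 32851 promoters in the RefSeq table, each searched over its full length as the members' were, 1131 (3.44%) hold the core on either strand. It stands in 9 of 28 promoters (32.1%) of the other interferon-stimulated effectors listed below, so most of those lack these exact letters as well. A direct repeat of the LXR type, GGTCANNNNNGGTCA, stands in 25 of all promoters (0.0761%) and in 0 of the 5 members' promoters. It also stands in 0 of 15 promoters of the LXR targets listed below. The search over 300 bases therefore does not set the members apart from LXR targets. An estrogen response element, GGTCANNNTGACC, stands in 23 of all (0.07%) and again in 0 of the 5 members' promoters. A match is a description of the letters and not evidence that a factor binds.

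Library totals ran from 19354093 to 30921038 estimated counts, and the biological coefficient of variation was 7.55%. The lowest estimated count of any member in any library was 173, for Oasl1. Macrophage markers were abundant: Csf1r, the receptor for the macrophage growth factor, had at least 31675 counts in each library. Col1a1, a collagen gene of stromal cells, had at least 22508. None of 7 lymphocyte markers and 1 of 6 neutrophil markers (S100a8) passed the filter. Of 6 plasmacytoid dendritic cell markers, Bst2, Tcf4 and Runx2 passed, while Siglech and Ly6d, at 4.00 and 3.00 counts at most, stood at 0 in 29 and 39 libraries. The mean share of counts from mitochondrial genes ran from 1.34% with GSK2033 plus 27HC to 2.17% with GW3965, and was 1.60% with Vehicle. In bulk RNA, fewer cells of a type and less RNA per cell cannot be told apart.

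Oas1a and Oas1g are the small synthetases, and their transcripts are near copies. Of the distinct stretches of 31 bases in Oas1a transcripts, 68.7% also occur in Oas1g, and 54.6% of those in Oas1g occur in Oas1a. The split of reads between these genes is therefore uncertain. For Oas2, 0 of 4441 stretches were shared with another gene, and for Oas3, Oasl1 and Oasl2 the shared part was 2.27%, 0.409% and 1.23%. Levels are given below as CPM, the counts scaled to library size after TMM normalisation, and every fold change is on the log2 scale.

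Per kilobase of annotated exons, Oas1a had the highest Vehicle level, 144 ± 3.95 CPM per kb (SD, n = 6). Oas3 followed at 82.0 ± 3.53 and Oasl2 at 70.6 ± 3.36 CPM per kb. Oas1g stood at 36.0 ± 1.72, Oasl1 at 31.4 ± 3.17 and Oas2 at 7.49 ± 0.892 CPM per kb.

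Oas1a is an active synthetase. In the 6 Vehicle libraries its level ran from 259 to 280 CPM, with a median of 272. The 5 libraries with 27HC held 131, 146, 141, 139 and 126 CPM. With GW3965 they held 111, 106, 102, 98.5 and 107 CPM. Both groups lay wholly below Vehicle. With GSK2033 the libraries held 324, 314, 325, 310 and 323 CPM, wholly above Vehicle. With E2 the values were 218, 222, 247, 238 and 221 CPM, wholly below Vehicle but above every 27HC library. When GSK2033 was given with 27HC, the libraries held 183, 168, 181, 184 and 188 CPM, between 27HC and Vehicle without touching either group. ICI gave 265 to 303 CPM and overlapped Vehicle. ICI with 27HC gave 117 to 131 CPM, and GW3965 with the second compound gave 110 to 120. The order of means was GSK2033, ICI, Vehicle, E2, GSK2033 with 27HC, 27HC, ICI with 27HC, the GW3965 combination and GW3965. In that order ICI and Vehicle overlapped, as did each neighbouring pair of the last 4 groups.

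Oas1g, the near copy of Oas1a, had 78.2 to 88.6 CPM with Vehicle and a mean of 84.2 ± 4.04 CPM (SD, n = 6). Its means were 35.5 ± 2.82 CPM with 27HC and 22.7 ± 1.45 with GW3965 (n = 5 each). GSK2033 gave 95.9 ± 2.53 CPM and E2 67.3 ± 2.09. All 4 groups lay apart from Vehicle. The combinations with 27HC had means of 48.9 ± 4.66 CPM (GSK2033) and 34.0 ± 2.27 CPM (ICI). GW3965 with the second compound had 29.7 ± 1.04 CPM, wholly above the GW3965 libraries. ICI alone (86.4 ± 3.62 CPM) overlapped Vehicle. Oas1g took 23.7% ± 0.547 of the counts given to Oas1a and Oas1g together with Vehicle (SD, n = 6), 20.7% ± 0.858 with 27HC and 17.8% ± 0.522 with GW3965 (n = 5 each). Because the copies share sequence, how much of this difference lies in the assignment of reads was not tested.

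Oas2, one of the larger synthetases, was the member with the lowest level per kilobase. Vehicle libraries ran from 28.3 to 39.7 CPM (median 32.7). The means were 15.9 ± 1.07 CPM with 27HC and 13.7 ± 1.97 with GW3965 (SD, n = 5 each), both wholly below Vehicle. With E2 they were 27.1 ± 2.3 and with GSK2033 39.1 ± 2.02 CPM, and both groups overlapped Vehicle. ICI gave the highest mean of Oas2, 39.7 ± 3.30 CPM, and also overlapped Vehicle. GSK2033 with 27HC gave 23.3 ± 2.06 CPM. ICI with 27HC (13.9 ± 1.18) and the GW3965 combination (14.0 ± 1.17) overlapped GW3965 alone.

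Oas3 is the largest synthetase of the family. Vehicle libraries ran from 545 to 621 CPM, with a median of 577. The 27HC libraries held 189, 229, 198, 221 and 190 CPM. The GW3965 libraries held 118, 124, 117, 122 and 133 CPM. Each of these groups lay far below Vehicle and apart from the other. With GSK2033 the values were 687, 648, 677, 671 and 646 CPM, all above the highest Vehicle library. With E2 they were 430, 422, 433, 423 and 423 CPM, a spread of 1.25% of the mean (coefficient of variation). With GSK2033 and 27HC together they were 305, 274, 295, 321 and 314 CPM. ICI with 27HC gave 160 to 169 CPM, below every library with 27HC alone. The GW3965 combination (118 to 126 CPM) overlapped GW3965 alone, and ICI alone (594 to 615 CPM) overlapped Vehicle.

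Oasl1 has lost the synthetase activity, and in mice it is known as a brake on translation of Irf7, the main transcription factor for interferon alpha. It had the widest range of the 6: its highest group mean was 13.9 times its lowest, against 2.90 to 5.46 times for the others. Vehicle libraries ran from 74.5 to 97.1 CPM (median 78.2). With 27HC they held 18.8, 24.0, 18.8, 17.8 and 15.6 CPM. With GW3965 they held 9.15, 12.3, 9.34, 10.3 and 10.5 CPM. These groups did not overlap each other or Vehicle. GSK2033 gave 156, 139, 159, 129 and 137 CPM, and ICI gave 107, 117, 113, 104 and 107 CPM. Both lay above every Vehicle library, and ICI was apart from Vehicle in no other member. E2 gave 53.4, 50.8, 59.7, 48.7 and 46.5 CPM, below Vehicle. GSK2033 with 27HC gave 44.9, 45.5, 48.8, 47.9 and 50.8 CPM, which overlapped E2. ICI with 27HC (16.9 to 22.7 CPM) overlapped 27HC alone, and the GW3965 combination (9.97 to 15.6 CPM) overlapped GW3965 alone.

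Oasl2 is the OAS-like member that retains synthetase activity in mice. Vehicle libraries ran from 420 to 479 CPM, with a median of 451. The 27HC libraries held 182, 207, 172, 189 and 162 CPM. The GW3965 libraries held 112, 112, 97.2, 99.8 and 107 CPM. Both groups lay below Vehicle, and they were apart from each other. E2 gave 393, 369, 359, 351 and 356 CPM, again below Vehicle. GSK2033 gave 483, 467, 458, 460 and 464 CPM, which overlapped Vehicle, unlike the GSK2033 values of Oas1a, Oas1g, Oas3 and Oasl1. ICI gave 456 to 462 CPM, inside the Vehicle range. GSK2033 with 27HC gave 275, 258, 244, 262 and 247 CPM. ICI with 27HC (131 to 148 CPM) overlapped the GW3965 combination (112 to 132 CPM).

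**Figure D1:**
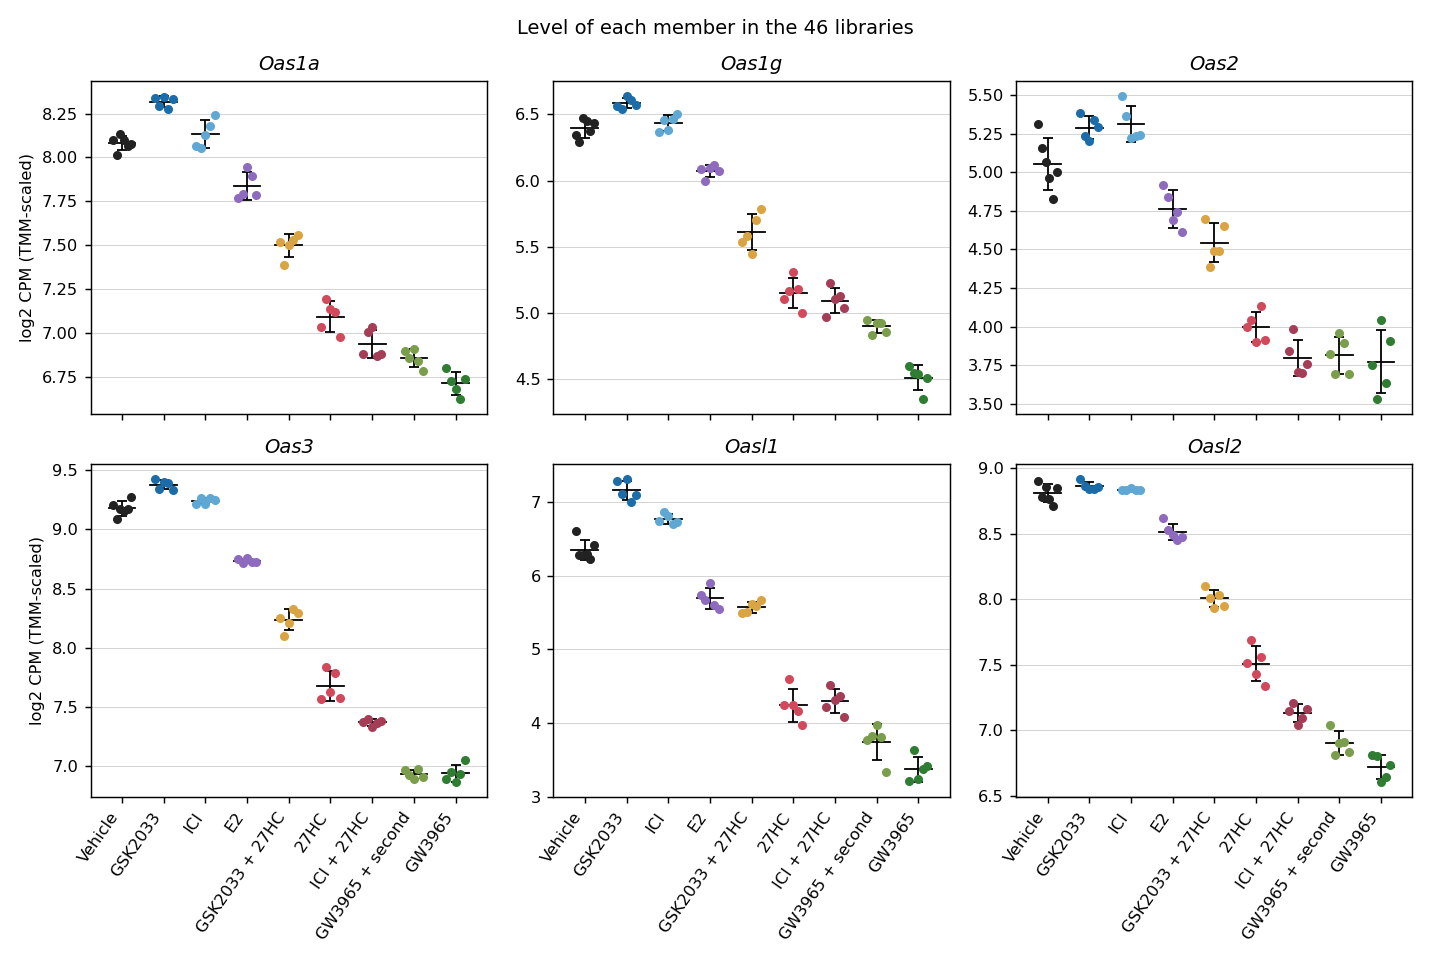
Level of each member in every library on a log2 CPM axis, 1 panel per gene and 1 column per group. Points are libraries, long bars are group means and error bars are SD (n = 6 for Vehicle, 5 otherwise). GSK2033 stands at or near the top and GW3965 at or near the bottom in each panel, and Oasl1 spans the widest range.

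With 27HC, all 6 members fell against Vehicle. Oasl1 fell by 2.11 ± 0.090 (log2, SE), 4.30-fold, and Oas3 by 1.50 ± 0.039, 2.83-fold. Oasl2 was 2.47-fold, Oas1g 2.37-fold, Oas2 2.1-fold and Oas1a 1.98-fold lower. Adjusted p-values (edgeR quasi-likelihood test, Benjamini-Hochberg over 13838 genes) ran from 5.55e-32 for Oas3 to 1.77e-15 for Oas2. In this comparison 20.0% of all genes tested were called lower and 20.3% higher at an adjusted p of 0.05. The members' median was -1.27 beside a median of all genes of -0.00218. Counted from the most reduced of the 13838 genes, Oasl1 ranked 85 and Oas1a, the least changed member, 472. All 6 members had 27HC libraries wholly below the Vehicle libraries. The share of all genes whose groups lay apart in this way is not given, here or in the comparisons below.

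GW3965 gave lower levels still. All 6 members again lay below Vehicle: Oasl1 fell by 2.98 ± 0.097 (7.88-fold), Oas3 fell by 2.24 ± 0.041 (4.73-fold) and Oasl2 fell by 2.1 ± 0.047 (4.27-fold). Oas1g was 3.72-fold, Oas1a 2.58-fold and Oas2 2.45-fold lower, and adjusted p-values ran from 1.76e-38 (Oas3) to 3.40e-18 (Oas2). Of all genes, 21.1% were called lower and 23.1% higher. The members' median was -1.99.

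The agonists were also set directly against each other, at doses the labels do not give. Oasl1 was 0.87 ± 0.107 higher with 27HC than with GW3965 (adjusted p = 6.93e-09), Oasl2 0.79 ± 0.048, Oas3 0.74 ± 0.041, Oas1g 0.65 ± 0.056 and Oas1a 0.38 ± 0.042. These 5 passed the test, where 12.8% of all genes were higher with 27HC and 12.5% lower. With the counts of Oas1a and Oas1g summed, the difference was 0.43 (adjusted p = 3.73e-12). Oas2 differed by 0.22 (95% interval 0.05 to 0.40, adjusted p = 0.0538). That call depends on single libraries: leaving out 27HC replicate 3 or 5, or GW3965 replicate 3 or 5, brought the adjusted p to between 0.00918 and 0.0418. A fit with the replicate number as a block gave an adjusted p of 0.043, and DESeq2 gave 0.0437.

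With GSK2033 alone the family stood higher. Oasl1 rose by 0.81 ± 0.078 (1.76-fold, adjusted p = 9.67e-12). Oas1a rose by 0.24 ± 0.038, Oas2 by 0.23 ± 0.074, Oas3 by 0.20 ± 0.037 and Oas1g by 0.19 ± 0.047. Oasl2 differed by 0.05 (95% interval -0.04 to 0.14, adjusted p = 0.382). Of all genes, 18.4% were called higher and 17.9% lower, beside 5 of 6 members higher. In 4 members the GSK2033 libraries lay wholly above Vehicle, a count with no share of all genes to set beside it. The call for Oas2 (adjusted p = 0.0133) rests on Vehicle replicate 5, without which the difference was 0.18 and the adjusted p 0.0522.

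E2 lowered all 6 members by smaller amounts, in a comparison that called few genes: 2.49% of those tested were lower and 2.2% higher. Oasl1 fell by 0.66 ± 0.082 (1.58-fold, adjusted p = 9.76e-08) and Oas3 by 0.44 ± 0.038 (1.36-fold, adjusted p = 6.03e-12). Oas1g fell by 0.32, Oasl2 by 0.30, Oas2 by 0.30 and Oas1a by 0.24. E2 libraries lay wholly below Vehicle in 5 members, again with no share of all genes to set beside this count. Oas2, the exception, had an adjusted p of 0.0109. Without Vehicle replicate 1 that became 0.0632, without E2 replicate 5 it became 0.0573, and a fit on the E2 and Vehicle libraries alone gave 0.0619.

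ICI alone raised 2 members, Oasl1 by 0.42 ± 0.079 (1.34-fold, adjusted p = 3.90e-05) and Oas2 by 0.25 ± 0.074 (1.19-fold, adjusted p = 0.00859). For the other 4 the differences ran from 0.02 (Oasl2) to 0.06 (Oas3), and the widest of their 95% intervals ran from -0.06 to 0.14 (Oas1g). Of all genes, 13.9% were called higher and 12.5% lower.

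Summed levels of marker lists for macrophages, stromal cells and dendritic cells also differed between treatments. The summed level of 7 macrophage markers ran from 19576 to 21345 CPM with Vehicle, 13747 to 15029 with 27HC, 10664 to 11215 with GW3965, 20633 to 22121 with E2, 15548 to 16564 with GSK2033 and 13963 to 14676 with ICI. The summed level of 6 stromal markers ran from 4145 to 4918 CPM with Vehicle, 3269 to 3709 with 27HC, 3182 to 3812 with GW3965, 4283 to 4831 with E2, 3599 to 4411 with GSK2033 and 3480 to 4123 with ICI. In the groups given 2 compounds the macrophage sum ran from 9075 to 13534 CPM and the stromal sum from 2664 to 3870. The macrophage markers did not all follow their sum. Csf1r, Adgre1, Itgam, Fcgr1 and Lyz2 fell with 27HC and with GW3965. Cd68 rose by 0.25 with 27HC and by 0.11 with GW3965. Mertk rose by 0.81 with GW3965 and differed by 0.08 with 27HC (adjusted p = 0.136). With 27HC, 4 of the 6 stromal markers were lower and 1 higher. With E2, 0 of 6 stromal markers passed, and of the macrophage markers Fcgr1 fell while Csf1r and Itgam rose.

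The summed level of the 6 plasmacytoid dendritic cell markers lay on the same side of Vehicle as most members in the single treatments and combinations. It ran from 684 to 731 CPM with Vehicle, 344 to 392 with 27HC, 236 to 258 with GW3965, 557 to 588 with E2, 774 to 861 with GSK2033 and 740 to 816 with ICI. With GSK2033 plus 27HC it was 478 to 502 CPM, with ICI plus 27HC 375 to 407 and with the GW3965 combination 285 to 312. Bst2, which is also on the list of interferon-stimulated effectors, gave most of this sum. Without Bst2 the other 5 markers summed to 94.0 to 108 CPM with Vehicle, 76.7 to 85.2 with 27HC, 65.3 to 75.5 with GW3965, 90.9 to 111 with E2, 63.3 to 72.0 with GSK2033 and 73.2 to 91.4 with ICI. Tcf4 fell by 0.28 under 27HC, by 0.52 under GW3965, by 0.65 under GSK2033 and by 0.30 under ICI, and E2 gave a difference of 0.06 (adjusted p = 0.730). The 5 conventional dendritic cell markers summed to 12.7 to 17.0 CPM with Vehicle, 17.2 to 18.5 with 27HC, 10.4 to 13.1 with GW3965, 15.0 to 16.8 with E2 and 23.4 to 26.3 with GSK2033 plus 27HC. Of these, Flt3 reached 1.06 counts at most and stood at 0 in 38 libraries. The part of these marker lists in the members' differences was not tested.

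**Figure D2:**
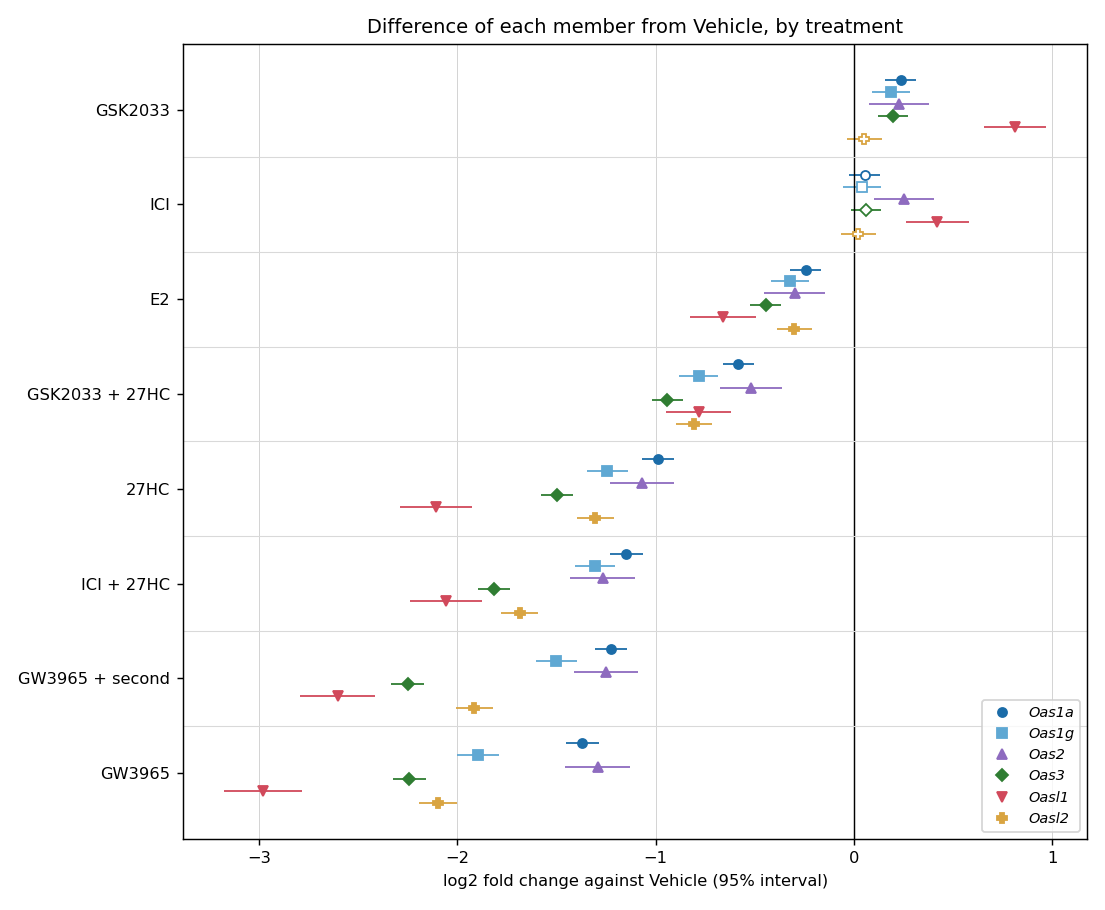
Log2 fold change of each member against the 6 Vehicle libraries (points) with 95% intervals (bars) for the 8 treatments, which share those Vehicle libraries. Filled symbols passed an adjusted p of 0.05, and open symbols did not. GSK2033 and ICI lie at or above 0, and the other treatments lie below it in all 6 members, furthest for Oasl1 with GW3965.

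When GSK2033 was present with 27HC, the members stood between the 27HC and Vehicle levels. Against 27HC alone all 6 were higher: Oasl1 by 1.32 ± 0.093 (2.5-fold, adjusted p = 3.21e-16), Oas3 by 0.56, Oas2 by 0.55, Oasl2 by 0.50, Oas1g by 0.46 and Oas1a by 0.41. In this comparison 21.1% of all genes were called higher and 21.7% lower. Against Vehicle all 6 were still lower, from 0.94 ± 0.038 lower for Oas3 to 0.52 ± 0.077 lower for Oas2, beside 26.4% of all genes called lower and 24.1% higher.

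27HC also lowered the family in cells that had GSK2033 in both arms. Against GSK2033 alone, Oasl1 fell by 1.60 ± 0.085 (3.02-fold), Oas3 by 1.14 ± 0.040 (2.21-fold), Oas1g by 0.97, Oasl2 by 0.86, Oas1a by 0.82 and Oas2 by 0.75. All 6 passed the test, with adjusted p-values from 5.51e-27 to 1.09e-10, beside 18.8% of all genes called lower and 17.1% higher. The LXR targets, a list of 16 genes of which 15 were tested, had 13 higher with 27HC alone. With 27HC over GSK2033, 2 (Fasn and Mylip) were higher and 8 lower. Abca1, the cholesterol efflux pump, rose by 1.33 with 27HC alone, and with 27HC over GSK2033 it fell by 0.86.

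The difference between these 27HC responses was tested as an interaction. The fall with 27HC was smaller when GSK2033 was present for all 6 members: by 0.51 ± 0.121 for Oasl1 (adjusted p = 0.00151), 0.44 ± 0.064 for Oasl2 (5.09e-07), 0.36 ± 0.055 for Oas3 (1.94e-06), 0.32 ± 0.112 for Oas2 (0.0356), 0.27 ± 0.071 for Oas1g (0.00389) and 0.17 ± 0.056 for Oas1a (0.0261). Of all genes, 9.34% had a positive and 10.3% a negative interaction that passed. The call for Oas2 was lost without any 1 of 9 libraries: Vehicle replicate 1 or 2, 27HC replicate 1, 3 or 5, GSK2033 replicate 2 or 3, or replicate 1 or 5 of the combination (adjusted p from 0.051 to 0.0831). The call for Oas1a was lost without 27HC replicate 1 or 5 or GSK2033 replicate 2 or 4 (0.0535 to 0.0598).

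27HC lowered the family with ICI present as well. With ICI in both arms it lowered Oasl1 by 2.48 ± 0.092 (5.57-fold), Oas3 by 1.87 ± 0.041 (3.67-fold), Oasl2 by 1.71, Oas2 by 1.52, Oas1g by 1.34 and Oas1a by 1.20. All 6 passed, beside 20.7% of all genes called lower and 19.7% higher. Against Vehicle the combination was lower in all 6 members, from 2.06 ± 0.089 lower for Oasl1 to 1.15 ± 0.040 lower for Oas1a, where 26.4% of all genes were lower and 26.6% higher.

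Set against 27HC alone, the combination with ICI lowered 3 members: Oasl2 by 0.38 ± 0.047 (adjusted p = 7.32e-09), Oas3 by 0.31 ± 0.041 (1.84e-08) and Oas1a by 0.16 ± 0.042 (0.00229). Here 17.4% of all genes were called lower and 16.8% higher. The libraries of Oas3 and Oasl2 did not overlap between these groups. Oas1g differed by -0.06 (95% interval -0.17 to 0.05), but with the counts of Oas1a and Oas1g summed the difference was -0.14 (adjusted p = 0.00588). Oas2 differed by -0.20 (95% interval -0.37 to -0.02, adjusted p = 0.0728), and passed without ICI with 27HC replicate 2 (0.034) and in a fit on these groups alone (0.0448). Oasl1 differed by 0.05 (95% interval -0.15 to 0.25), with a sign that turned without 27HC replicate 5 or without ICI with 27HC replicate 2.

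The interaction of ICI and 27HC was negative in 5 members: -0.45 ± 0.114 for Oas2 (adjusted p = 0.00318), -0.40 ± 0.064 for Oasl2 (4.14e-06), -0.38 ± 0.055 for Oas3 (8.69e-07), -0.37 ± 0.126 for Oasl1 (0.0347) and -0.21 ± 0.056 for Oas1a (0.00528). Of all genes, 9.97% had a negative and 7.39% a positive interaction that passed. Oas1g had -0.10 (95% interval -0.25 to 0.04, adjusted p = 0.388), and the summed Oas1a and Oas1g row had -0.19 (0.0113). The call for Oasl1 was lost when no filter on low counts was used (0.0714). It was also lost without any 1 of 8 libraries: Vehicle replicate 2, 3, 4 or 5, 27HC replicate 2, ICI replicate 2, or replicate 1 or 5 of the combination (0.052 to 0.133).

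**Figure D3:**
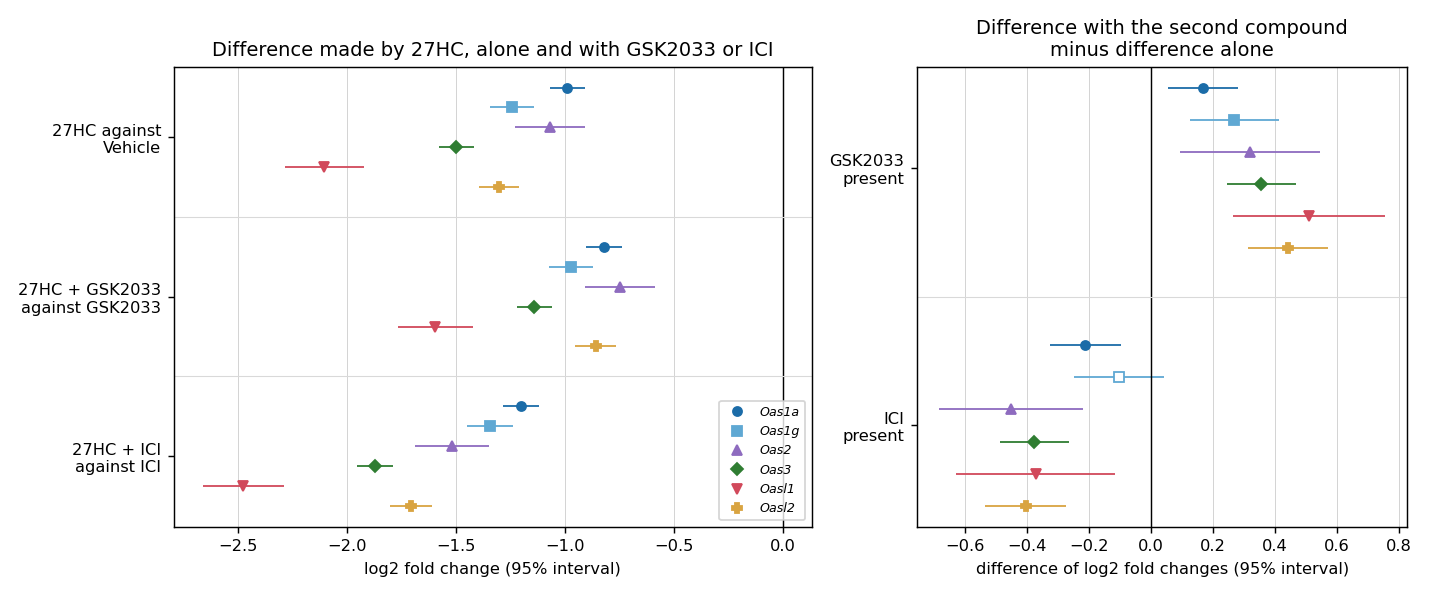
Left, log2 fold change made by 27HC in each member, alone and with GSK2033 or ICI in both arms (points, with 95% intervals). Right, the interaction, which is the difference with the second compound present minus the difference alone: all 6 members lie above 0 for GSK2033 and all 6 below 0 for ICI, where Oas1g (open symbol) did not pass the test.

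GW3965 with the second compound was lower than Vehicle in all 6 members, from 2.60 ± 0.093 lower for Oasl1 (6.07-fold) to 1.23 ± 0.040 lower for Oas1a (2.34-fold). Of all genes, 24.4% were called lower and 25.2% higher. Against GW3965 alone, 4 members were higher: Oas1g by 0.39 ± 0.056 (adjusted p = 5.64e-07), Oasl1 by 0.38 ± 0.110 (0.0118), Oasl2 by 0.18 ± 0.048 (0.00518) and Oas1a by 0.14 ± 0.042 (0.0118). With the counts of Oas1a and Oas1g summed, the difference was 0.19 (adjusted p = 4.30e-04). This comparison called 7.93% of all genes higher and 9.56% lower. Oas2 differed by 0.04 (95% interval -0.14 to 0.22) and Oas3 by -0.01 (-0.09 to 0.08), and both signs turned when single libraries were left out. The call for Oasl1 was lost without replicate 3 of the combination (0.0503).

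The members' levels ran together over the libraries. Over the 46 libraries, Pearson's r of log2 CPM between pairs of members ran from 0.954 to 0.993 (15 pairs, median 0.978). With each group's mean removed it ran from 0.0640 (Oas1a and Oas2) to 0.591 (Oas1a and Oas1g), with a median of 0.324. The libraries share treatment groups and scaling factors, and these values are descriptions.

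Among the genes whose log2 CPM was most like the mean of the members over the 46 libraries were Dhx58, Ifit2, Ifi209, Irgm1, Ifit3, Ifit3b and Trim30a. Their r with the members' mean ran from 0.994 to 0.996. With group means removed it ran from 0.348 for Ifi209 to 0.776 for Ifit3. Among 12094 genes compared, 266 had an r of 0.9 or more and 44 an r of -0.9 or less.

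Of the OAS genes outside the 6, only Oas1b and Oas1c passed the filter. Oas1b, a form that the annotation lists as a polymorphic pseudogene, had 4.38 ± 0.395 CPM with Vehicle (SD, n = 6), 1.61 ± 0.262 with 27HC, 1.42 ± 0.293 with GW3965 and 6.49 ± 0.430 with GSK2033 (n = 5 each). It fell by 1.45 with 27HC and by 1.62 with GW3965, and rose by 0.57 with GSK2033. Oas1c, which shares 25.2% of its 31-base stretches with other genes, fell by 1.06 and 1.13 with the agonists. Oas1d, Oas1e, Oas1f and Oas1h reached 3.59 counts at most in any library.

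The 5 genes listed with the 2-5A pathway had smaller differences than every member with 27HC, GW3965 and E2. This did not hold with GSK2033, where Cgas rose by 0.22 and Oasl2 differed by 0.05. Nor did it hold with ICI, where Abce1 rose by 0.10 and Oasl2 differed by 0.02. Abce1, a ribosome recycling factor, rose by 0.32 with 27HC, and Pde12, which degrades 2-5A, rose by 0.25. Cnp, a cyclic nucleotide phosphodiesterase, fell by 0.53. Cgas, a DNA sensor with a fold like that of OAS, differed by -0.15 (adjusted p = 0.169) with 27HC, and with GW3965 it fell by 0.48. With E2, 0 of the 5 genes of this list passed the test.

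Of 16 interferon receptor and signalling genes, 10 were lower and 3 (Ifnar1, Irf5 and Irf8) higher with 27HC, and 10 were lower and 3 (Irf5, Irf8 and Ifngr1) higher with GW3965. Irf7 fell by 2.1 with 27HC and fell by 3.45 with GW3965. Jak1 fell by 0.16 and 0.15. Ifnar1 and Ifnar2 are the subunits of the type I interferon receptor. Ifnar1 rose by 0.10 with 27HC, and Ifnar2, named after its value was seen, differed by -0.04 (adjusted p = 0.144). With E2, 5 of the 16 fell and 0 rose, among them Irf7 by 0.55, Stat2 by 0.41, Irf1 by 0.23 and Irf9 by 0.14. With GSK2033, 8 were lower and 5 higher, among them Irf1, Stat2, Tyk2 and Irf9, while Irf7 fell by 0.15.

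Interferon transcripts themselves were near the limit of detection. Of 21 ligand genes, 4 had a row in the table and 0 were tested. Ifnb1 reached 4.99 counts at most and stood at 0 in 36 of 46 libraries, and Ifng reached 3.85 and stood at 0 in 37. Differences between treatments in these ligands could not be tested at counts this low.

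Other interferon-stimulated effectors followed the members' direction. All 26 tested fell with 27HC (median -1.38) and with GW3965 (median -1.96). With E2, 25 of 26 fell (median -0.44), and Mx2 differed by -0.52 (adjusted p = 0.228). With GSK2033, 20 rose and 1, Trim25, fell (median 0.43). Bst2, which tethers virus particles, fell by 1.06 with 27HC and 0.35 with E2 and rose by 0.35 with GSK2033. Samhd1, which depletes nucleotides, fell by 0.98 with 27HC and 0.24 with E2. Parp14, an ADP-ribosyltransferase, fell by 1.08 and 0.29. With ICI, 12 of the 26 rose and 1, Samhd1, fell (median 0.11).

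The list of nucleic acid sensors, which also holds adaptors and kinases, was mixed. Of its 13 genes, 10 fell and 2 (the adaptors Mavs and Ticam1) rose with 27HC, and 6 fell and 0 rose with E2. Ddx58, the RNA sensor RIG-I, fell by 1.48 with 27HC and 0.31 with E2, and Tlr7 fell by 0.57 with 27HC and differed by 0.04 with E2 (adjusted p = 0.730). Myd88, the adaptor of Tlr7, fell by 0.45 with 27HC and 0.12 with E2. Of 8 genes listed as negative regulators of the pathway, 7 fell with 27HC, all but Pias1. With E2, 4 (Usp18, Socs1, Ube2l6 and Trim21) fell. Ube2l6, which conjugates ISG15, fell by 0.94 and 0.38, and the phosphatase Ptpn6 fell by 0.37 with 27HC.

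The LXR targets took another course. Of 15 tested, 13 rose and 2 (Nr1h3 and Smpdl3a) fell with 27HC, and 14 rose and 1 (Nr1h3) fell with GW3965. With GSK2033, 14 fell and 1 (Nr1h3) rose. With E2, 1 (Mylip, by 0.24) rose and 0 fell. Apoe, Lpl and Abca1 rose by 0.18, 1.14 and 1.33 with 27HC, and with E2 they differed by 0.10, -0.13 and 0.13, none of which passed.

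**Figure D4:**
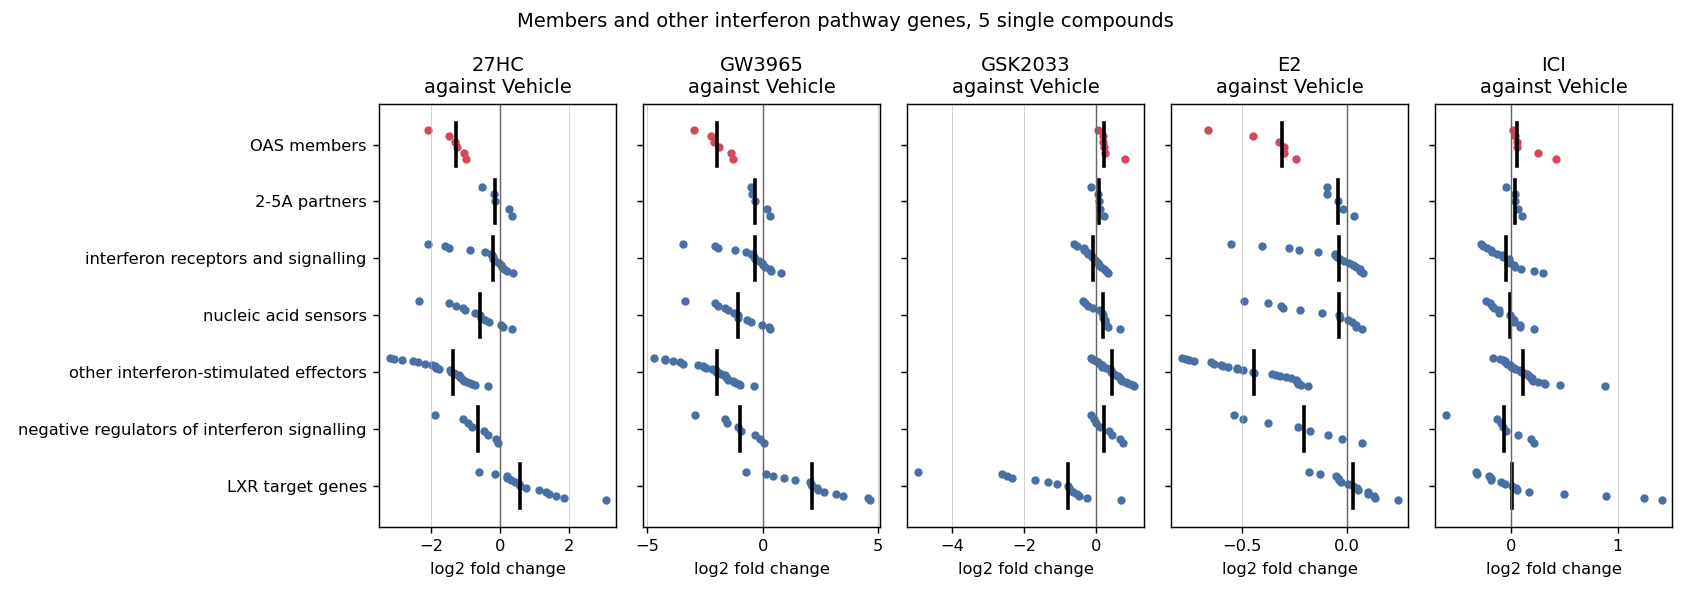
Log2 fold change against Vehicle of the 6 members (red) and of the tested genes of each pathway list (blue), 1 panel per compound, each with its own horizontal axis. Points are genes and vertical bars are list medians. The members and the other effectors lie below 0 with 27HC, GW3965 and E2, while the LXR targets lie mostly above 0 with 27HC and GW3965 and near 0 with E2.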

How the data were processed

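RNA from 46 samples of bone marrow-derived macrophages was sequenced as stranded, polyadenylated libraries, per the labels' protocols. The deposited values are estimated counts per gene, made by the authors with kallisto 0.44.0 on GRCm38, per the submitters' processing notes. How transcripts were summed to genes is not given in the sources used here. GENCODE M21 gave symbols for 24243 of 24671 identifiers. Counts were rounded, which moved no library total by more than 133. edgeR 4.0.16 (filterByExpr, TMM, robust quasi-likelihood fit, 1 mean per group, 37 residual degrees of freedom) tested 13838 genes, with Benjamini-Hochberg adjustment and a threshold of 0.05. The SE is the log2 fold change divided by the square root of F, and 95% intervals use the t distribution. Log2 CPM used a prior count of 2. The procedure was tested on simulated data.

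Replicate groups come from the labels. The members and gene lists were chosen with earlier results of these data known. All members are named in each comparison, with the 8 most similar genes by Pearson's r, the 3 most abundant tested genes of each pathway list, and any gene in a count of 5 or fewer. A few genes that this rule names are not reported here. Alternatives were RLE scaling, unscaled totals, no filter on low counts, only the groups compared, a replicate block, DESeq2 1.42.0, Oas1a and Oas1g summed, and each library left out. The ISRE, LXR and estrogen motifs were searched in RefSeq promoters of GRCm38.p6.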

Additional observations from a re-analysis of the deposited data

Results flagged for a closer look

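In 11 cases a member's response to 27HC differed, by the interaction test in edgeR, between cells with and without another compound. With GSK2033 the interaction was 0.1692 for Oas1a, 0.2706 for Oas1g, 0.3212 for Oas2, 0.3574 for Oas3, 0.5106 for Oasl1 and 0.4444 for Oasl2 (log2), each a smaller fall. With ICI it was -0.2115 for Oas1a, -0.4504 for Oas2, -0.3756 for Oas3, -0.3711 for Oasl1 and -0.4035 for Oasl2, each a larger fall. Both sets share the Vehicle and 27HC libraries.

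One library stood apart from its group in a member's level. Oasl2 had a log2 CPM of 8.851 in ICI replicate 3, where the other 4 ICI libraries had 8.832 to 8.837. This was 1 of 54 groups of libraries examined, and chance flags about 1 in 20.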

How the results depend on the processing

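The counts of members called in each direction, for all 16 comparisons, stayed within 1.5 times of the reported count in all 572 alternative counts run, and 538 of them equalled it. Of 1716 alternative values for the 96 single tested results, 1673 kept their direction and their side of the threshold. The others are named beside their results, and the cause was not tested. With 1 library left out, the sign turned in 3 results that had not passed the test: Oasl1 for ICI with 27HC against 27HC ranged from -0.01525 to 0.1459, Oas2 for the GW3965 combination against GW3965 from -0.01353 to 0.1122, and Oas3 for the same comparison from -0.02489 to 0.02429. Of 108 alternative levels, 107 moved by less than 1 SD, and Oasl2 with ICI, 457 CPM, was 450.3 without scaling.

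A replicate block, with the number in the titles as a term, changed 1 call: Oas2 for 27HC against GW3965 stood at 0.2217 with an adjusted p of 0.043. Between libraries with the same number, deviations from the group means had r from -0.0720 to 0.0998 (180 pairs, median 0.0123, 0 above 0.1). Pairs with other numbers had r from -0.136 to 0.105 (760 pairs, median -0.00322). Of 46 libraries, 12 correlated best with their own number, and the count that chance would give was not worked out. Depth limits the interferon ligands and the 4 least abundant OAS genes, and shared sequence limits the split of Oas1a and Oas1g.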
